A study of Mus musculus with 12 samples.

Results

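Genes of the ubiquitin-proteasome system were followed in mouse liver RNA on 12 spotted cDNA arrays with 2 colours. The members are the measured genes whose single symbol names a proteasome subunit (Psm), a ubiquitin-activating or -conjugating enzyme (Uba, Ube), a ubiquitin-specific protease (Usp), a subunit of the anaphase-promoting complex (Anapc), a cullin (Cul), an F-box protein (Fbx), a RING finger or tripartite-motif protein (Rnf, Trim), a Herc ligase or Ttc3. Clones of 1 gene were averaged, which gave 29 member genes from 32 clones, of 918 named genes and 2052 features measured, where a feature is either a gene with a symbol or a clone that carries no symbol or several. By this symbol pattern the array annotation names 225 genes on 340 clones, so most could not be followed. The symbol pattern also takes in Psme3ip1, which encodes a protein that binds the proteasome activator subunit PA28gamma and is no subunit itself.

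The mice were adult littermates on a mixed C57/BLJ6 X 129Sv background, whose F1 parents were heterozygous for both deletions: wild-type, Hp-null (Hp-/-, without haptoglobin), Hx-null (Hx-/-, without hemopexin) and HpHx-null (Hp-/-Hx-/-, without both). Haptoglobin carries free hemoglobin in plasma and hemopexin carries free heme, and the design asks what the liver's RNA looks like when 1 or both are missing. Livers of at least 5 PBS-perfused animals per genotype were pooled, and each null pool was set against wild-type liver on 4 arrays, with Cy3 and Cy5 exchanged on replicates 3 and 4 per the labels. The labels do not say whether the 4 arrays of a genotype come from separate pools or repeat 1 pair of pools; each p-value below measures only the spread between these arrays, which may be technical, and, if 1 wild-type pool was used, leaves out that pool's own spread. In pooled liver, fewer cells of a type and less RNA per cell cannot be told apart.

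Ubiquitin is activated by an E1 enzyme, handed to an E2 conjugating enzyme and attached to a target with the help of an E3 ligase, which picks the target. Chains of ubiquitin mark many proteins for the proteasome, whose regulatory particle unfolds them and whose core particle cuts them, while deubiquitinating enzymes such as the Usp family remove the mark. The anaphase-promoting complex is a large E3 ligase of the cell cycle with Anapc4 and Anapc7 among its subunits, and Ube2c and Ube2s are the E2 enzymes that start and lengthen its ubiquitin chains. In liver the system also takes part in iron handling, since the F-box protein Fbxl5 is degraded when iron is scarce and otherwise directs the iron regulatory protein IRP2 to the proteasome.

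The stretches of 250 bases before the transcription start are shown for the 4 members that passed a test below (Anapc4, Anapc7, Ube2s and Ttc3) and for Ube2c, the partner E2 of the same complex and the member with the widest range over the arrays. They are RefSeq's, of build GRCm38.p6, 5′ to 3′ on the strand of the gene. Ube2c lies at chr2:164769679-164769928 (plus strand), Anapc4 at chr5:52833885-52834134 (plus), Anapc7 at chr5:122422194-122422443 (plus), Ube2s at chr7:4812341-4812590 (minus) and Ttc3 at chr16:94370489-94370738 (plus). Capitals mark, on either strand, the letters CCAAT (the CCAAT box), TTTGAA (searched as the cell-cycle homology region, a repressor element of cell-cycle genes) and TGACNNNGC (the core of the antioxidant response element); ATTGG and TTCAAA are the first 2 read on the other strand.
Ube2c: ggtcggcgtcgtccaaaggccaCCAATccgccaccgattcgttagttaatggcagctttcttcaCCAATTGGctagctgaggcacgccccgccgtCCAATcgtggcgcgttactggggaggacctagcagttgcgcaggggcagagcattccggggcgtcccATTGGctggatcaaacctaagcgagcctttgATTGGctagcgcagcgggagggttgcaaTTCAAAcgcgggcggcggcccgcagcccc
Anapc4: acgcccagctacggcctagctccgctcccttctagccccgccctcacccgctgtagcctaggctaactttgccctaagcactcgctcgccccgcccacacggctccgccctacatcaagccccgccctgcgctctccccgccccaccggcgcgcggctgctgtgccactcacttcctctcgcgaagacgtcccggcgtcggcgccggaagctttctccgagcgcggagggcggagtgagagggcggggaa
Anapc7: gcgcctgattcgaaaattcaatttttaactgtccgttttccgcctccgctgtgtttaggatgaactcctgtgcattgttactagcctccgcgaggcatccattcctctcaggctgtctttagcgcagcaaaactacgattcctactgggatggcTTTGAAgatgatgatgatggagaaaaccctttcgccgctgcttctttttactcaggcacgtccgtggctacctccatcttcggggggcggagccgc
Ube2s: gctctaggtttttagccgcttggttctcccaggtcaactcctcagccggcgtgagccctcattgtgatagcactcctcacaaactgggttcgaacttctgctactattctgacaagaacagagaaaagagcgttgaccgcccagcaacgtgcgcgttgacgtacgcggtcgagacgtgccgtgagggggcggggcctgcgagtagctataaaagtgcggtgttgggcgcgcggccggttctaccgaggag
Ttc3: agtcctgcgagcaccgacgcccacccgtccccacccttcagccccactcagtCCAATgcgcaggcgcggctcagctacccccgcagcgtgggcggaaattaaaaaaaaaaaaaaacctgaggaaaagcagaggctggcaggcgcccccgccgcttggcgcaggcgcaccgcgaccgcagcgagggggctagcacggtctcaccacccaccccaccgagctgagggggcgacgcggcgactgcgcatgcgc

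The Ube2c stretch held 6 CCAAT matches, of which those on opposite strands at 186 to 182 and 183 to 179 bases before the start overlap in the run CCAATTGG, and 1 TTTGAA match on the other strand, 29 to 24 bases before the start. Anapc7 held 1 TTTGAA match, 96 to 91 bases before the start, and Ttc3 1 CCAAT match, 198 to 194 bases before it. Anapc4 and Ube2s held none of the 3 motifs in these letters. Among 32851 promoter stretches of the same length, CCAAT was found in 33.8%, TTTGAA in 16.0% and TGACNNNGC in 10.2%. RefSeq stretches were matched for 23 of the 29 members, of which 8, 3 and 1 held these motifs in at least 1 stretch. These 23 members had 29 stretches, so the member counts are by gene and the shares above by stretch. Fbxl5, Fbxl6, Psmd7, Trim14, Trim35 and Ube2d2a were not matched. A match is a description of letters and says nothing of binding in these livers, which was not measured.

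The deposited values are log ratios, taken as log2; the sources used here do not state their base, normalization or direction. An array held 3009 to 4165 values for 31200 spots, and spots came in neighbouring pairs of 1 clone, of which 2151 of 15600 were measured. Every gene name rests on reading the annotation in reversed order, spot k as spot 31201 minus k. By that reading 205 of 3476 pairs of different clones of 1 gene were both measured, against 63 by the direct reading. A property that had no part in choosing the order, the start of a clone's sequence accession, also separated the readings: clones starting with CK were measured in 51.7% of 700 cases by the reversed order, beside 16.3% of their neighbours, and in 15.3% by the direct order. The 8748 clones starting with BG were measured in 8.23% of cases by the reversed order, beside 14.4% of their neighbours. By the direct order it was 13.8%. The annotation names the deleted genes on 0 spots, so the genotype labels could not be checked on them.

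The sign of the ratios is unsettled, so ratios are called positive or negative as deposited. The arrays split into 2 sets of 6 by the sign of their loading on the first principal component, which held 71.5% of the sum of squares, with 2 arrays of each genotype in each set. Set A holds replicates 1 and 2 of Hx-null, replicates 2 and 3 of Hp-null, and replicates 1 and 4 of HpHx-null; set B holds the others. Across features, which are not independent replicates, arrays of 1 set correlated at 0.44 to 0.89 and arrays of different sets at -0.8 to -0.13. The labelled dye follows the sets in Hx-null, where arrays of the same dye correlated at 0.83 to 0.84, but not in Hp-null (-0.79 to -0.58) or HpHx-null (-0.64 to -0.22). What the sets stand for was not tested. The labels put the null pool in channel 2. If channel 2 was divided by channel 1 on all arrays, positive ratios stand for more RNA in the null pool. If channel 1 was divided by channel 2 on all arrays, every sign below turns, positive and negative counts change places, and sizes and p-values stay. If the direction instead differed between the 2 sets, the ratios fitted below would average opposite directions, and sizes and p-values would not stay. The difference between null and wild-type would then lie in that between the sets. Arrays were turned by labelled dye alone, not by set, so this was not tested.

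Therefore 2 fits were made with limma over all features and all 12 arrays, with p-values adjusted by Benjamini-Hochberg over every feature tested and a threshold of 0.05: one with a term for the labelled dye, and one with a term for the array set. The sets were read from these same values with earlier results known, and p-values of the second fit take no account of that. A feature was tested where each genotype compared had a value on 3 or more of its 4 arrays. By that rule the comparison of Hx-null took in 25 members, that of Hp-null 26 and that of HpHx-null 24; 22 members were tested in all 3. Herc3 and Usp32 were tested in Hp-null alone, Psmd7 in Hx-null alone, Trim44 and Ube2l3 in HpHx-null alone, and Trim14 and Ube2s in both single nulls. A value on all 12 arrays was had by 16 members.

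With the labelled dyes no member passed in limma. In Hx-null it was 0 of 25 members beside 12 of 1865 features (0.643%), with 0 members at an unadjusted p under 0.05. In Hp-null it was 0 of 26 beside 0 of 2017 (0.0%), with 1 member at an unadjusted p under 0.05, and in HpHx-null 0 of 24 beside 0 of 1711 (0.0%), with 3 members at an unadjusted p under 0.05. Member ratios ran from -0.2 to 0.26 in Hx-null, from -0.21 to 0.85 in Hp-null, and from -0.17 to 0.86 in HpHx-null. Their medians were 0.04, 0.04 and -0.04, beside -0.0, -0.02 and -0.02 over all features tested. The median SE of a member's ratio was 0.19, 0.19 and 0.18.

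With the array-set term the median SE fell to 0.1 in each null, and 4 members passed in 5 calls, all with positive ratios. They were Anapc4 and Ube2s in Hp-null, 2 of 26 members tested (7.69%) beside 56 of 2017 features (2.78%), and Anapc4, Anapc7 and Ttc3 in HpHx-null, 3 of 24 (12.5%) beside 92 of 1711 (5.38%). Of the 92 features, 87 were positive and 5 negative; of the 56, 18 and 38. In Hx-null 0 of 25 members passed in limma beside 39 of 1865 features (2.09%), with 1 member at an unadjusted p under 0.05. The unmoderated test called 0 members in every comparison with either term; with the set term it called 19 of 1865 features in Hx-null, 5 of 2017 in Hp-null and 0 of 1711 in HpHx-null. Member medians with the set term were 0.04, 0.06 and -0.04 in Hx-null, Hp-null and HpHx-null, beside -0.02, -0.01 and -0.03 over all features tested. Positive and negative members numbered 16 and 9 in Hx-null (64.0% positive, beside 44.0% of all features tested), 16 and 10 in Hp-null (61.5% beside 47.0%), and 8 and 16 in HpHx-null (33.3% beside 37.1%).

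**Figure D1:**
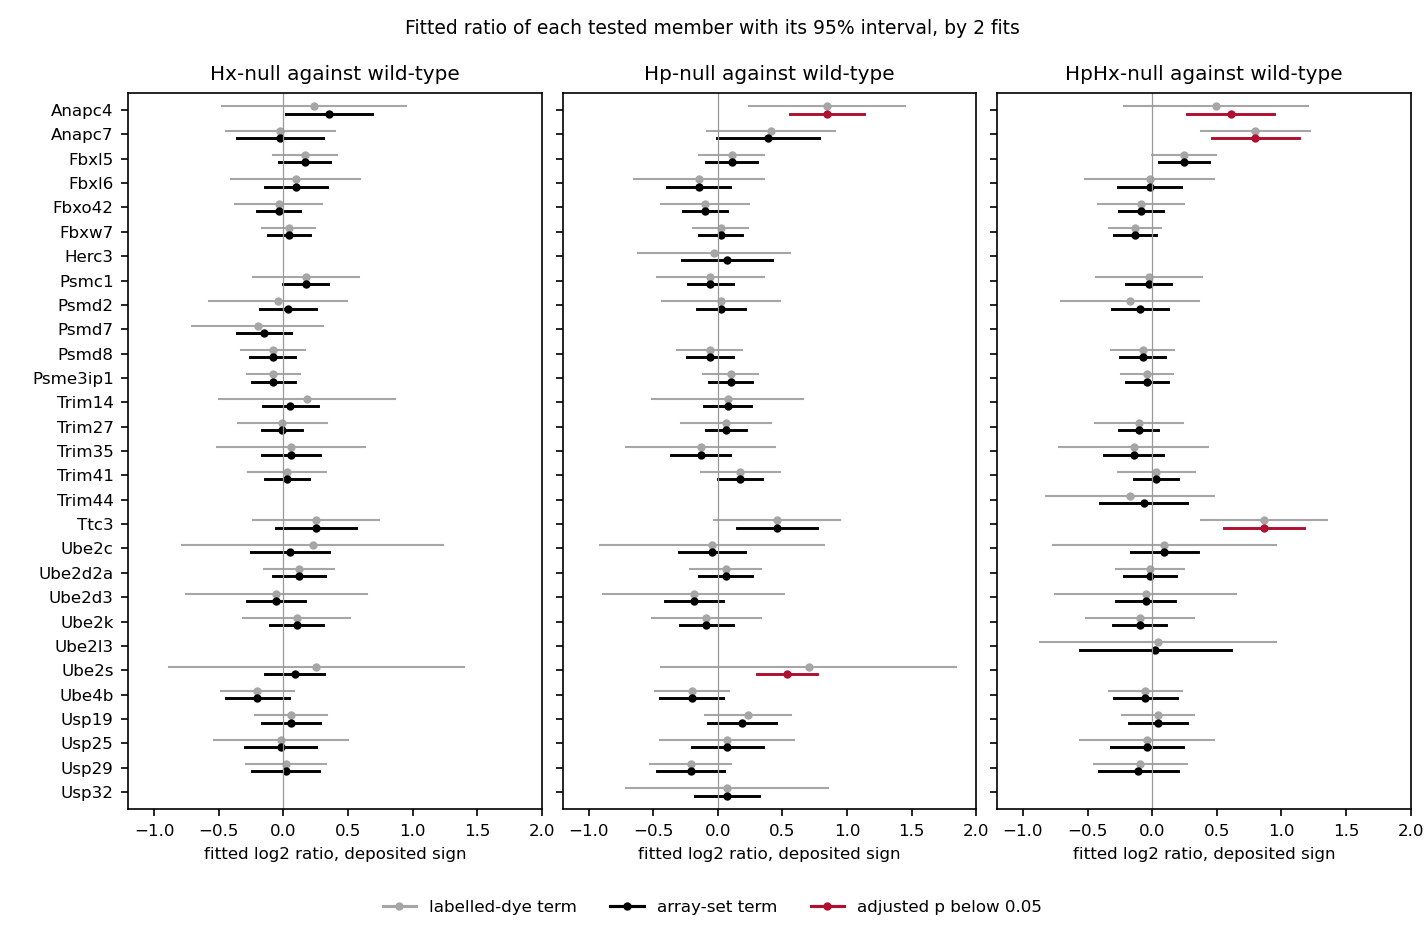
Fitted log2 ratio (horizontal axis, deposited sign) of each member tested in Hx-null, Hp-null and HpHx-null against wild-type, with its 95% interval from limma, by the fit with the labelled-dye term (grey) and with the array-set term (black). Red marks an adjusted p below 0.05, which is seen in 5 places, all with the array-set term: Anapc4 and Ube2s in Hp-null and Anapc4, Anapc7 and Ttc3 in HpHx-null. Grey and black points mostly coincide while the black intervals are shorter.

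Anapc4, a scaffold subunit of the anaphase-promoting complex, had ratios of 1.32, 0.67, 0.57 and 0.82 on replicates 1 to 4 of Hp-null, positive on 4 of 4 arrays, with the 2 arrays of set B above the 2 of set A. The mean was 0.85 ± 0.33 (SD, n = 4 arrays). By the fit with the array-set term the log2 ratio was 0.85 (SE 0.13, 95% interval 0.56 to 1.13, limma adjusted p = 0.00596), a 1.8-fold size; with the labelled dyes it was the same ratio with an SE of 0.26 and an adjusted p of 0.999. In HpHx-null Anapc4 stood at 0.28, 1.0 and 0.16 on replicates 1, 2 and 4, with no value on replicate 3, and again the array of set B was the highest. The fitted ratio was 0.61 (SE 0.15, limma adjusted p = 0.0428) with the set term and 0.49 (SE 0.31) with the labelled dyes. In Hx-null it was -0.52, 0.14 and 1.04 on replicates 1 to 3, with both signs, and the fitted 0.35 (SE 0.15, adjusted p = 0.32) did not pass. All 3 comparisons use wild-type liver as the reference.

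The call of Anapc4 in Hp-null was lost without replicate 1 of Hp-null (0.81, limma adjusted p = 0.0513) or replicate 2 (0.76, adjusted p = 0.068). In HpHx-null it held in 4 of the 12 fits that left out 1 array and was lost without replicate 2 of Hx-null (adjusted p = 0.0558), replicates 1, 2 or 3 of Hp-null (0.066, 0.0507 and 0.0592) or replicates 1, 2, 3 or 4 of HpHx-null (0.159, 0.244, 0.0726 and 0.136). The ratio stayed between 0.58 and 0.64 in these 12 fits. Anapc4 had no value on replicate 3 of HpHx-null, so the loss without that array came through the moderation and the adjustment over all features. After the signs were turned on the arrays with the null pool in Cy3, as values of Cy5 over Cy3 would need, Anapc4 had a ratio of 0.15 (SE 0.2) in Hp-null, 0.18 (SE 0.24) in HpHx-null and -0.67 (SE 0.24) in Hx-null, and 0 members passed in limma in any comparison, beside 0 of 1865, 0 of 2017 and 0 of 1711 features in Hx-null, Hp-null and HpHx-null against wild-type.

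Anapc7, a subunit of the same complex that helps to bind its coactivators, stood at 0.95, 0.65, 1.30 and 0.30 on replicates 1 to 4 of HpHx-null, positive on 4 of 4 arrays, with a mean of 0.80 ± 0.43 (SD, n = 4 arrays). The 2 arrays of set A (0.95 and 0.30) lay on both sides of the lower array of set B (0.65). The fitted ratio was 0.80 (SE 0.16, 95% interval 0.46 to 1.14, limma adjusted p = 0.0116) with the set term and 0.80 (SE 0.19, adjusted p = 0.19) with the labelled dyes. Anapc7 was at 0.62, 0.62 and -0.01 on replicates 1, 3 and 4 of Hp-null and at -0.27, 0.03, 0.35 and -0.22 on those of Hx-null, where it had both signs. Neither of these passed: the fitted ratios were 0.39 (SE 0.18) and -0.03 (SE 0.15). In HpHx-null the call was lost without replicate 1 (0.72, adjusted p = 0.0629) or replicate 3 (0.63, adjusted p = 0.0808). Turned by labelled dye in this way, the ratio in HpHx-null was 0.0 (SE 0.26).

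Ttc3, a ubiquitin ligase with tetratricopeptide repeats that targets phosphorylated Akt, had the largest ratio in HpHx-null among tested members. It stood at 1.03, 0.26, 1.30 and 0.87 on replicates 1 to 4, with a mean of 0.86 ± 0.44 (SD, n = 4 arrays). In Hp-null the arrays gave 0.16, 0.91, 0.90 and -0.15, and those of set A were high and those of set B near 0. In Hx-null they gave 0.32, 0.63, -0.07 and 0.11, with the same order of the sets. Over the 12 arrays 10 ratios were positive. The fit with the set term gave 0.86 (SE 0.14, 95% interval 0.55 to 1.18, limma adjusted p = 0.00637) in HpHx-null, a 1.82-fold size, 0.46 (SE 0.14, adjusted p = 0.112) in Hp-null and 0.25 (SE 0.14) in Hx-null. With the labelled dyes the ratio in HpHx-null had an SE of 0.22 and an adjusted p of 0.209.

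Of the 5 calls, that of Ttc3 alone held in each of the 12 fits without 1 array, with adjusted p from 0.00577 to 0.0269 and ratios from 0.61 to 1.0. The lowest ratio, 0.61 (limma adjusted p = 0.0184), came without replicate 3 of HpHx-null. That array was the highest of the 4 for Ttc3, Anapc7 and Fbxl5, held the fewest values of all arrays (3009) and had the smallest loading of all on the first component, 0.12; the part of this array's difference in these ratios was not tested beyond leaving it out. In Hp-null Ttc3 passed without replicate 3 of HpHx-null (0.46, SE 0.09, adjusted p = 0.0168) and with values as deposited, not centred (0.49, SE 0.12, adjusted p = 0.0378). Turned by labelled dye, its ratio in HpHx-null was -0.22 (SE 0.24), of the other sign.

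**Figure D2:**
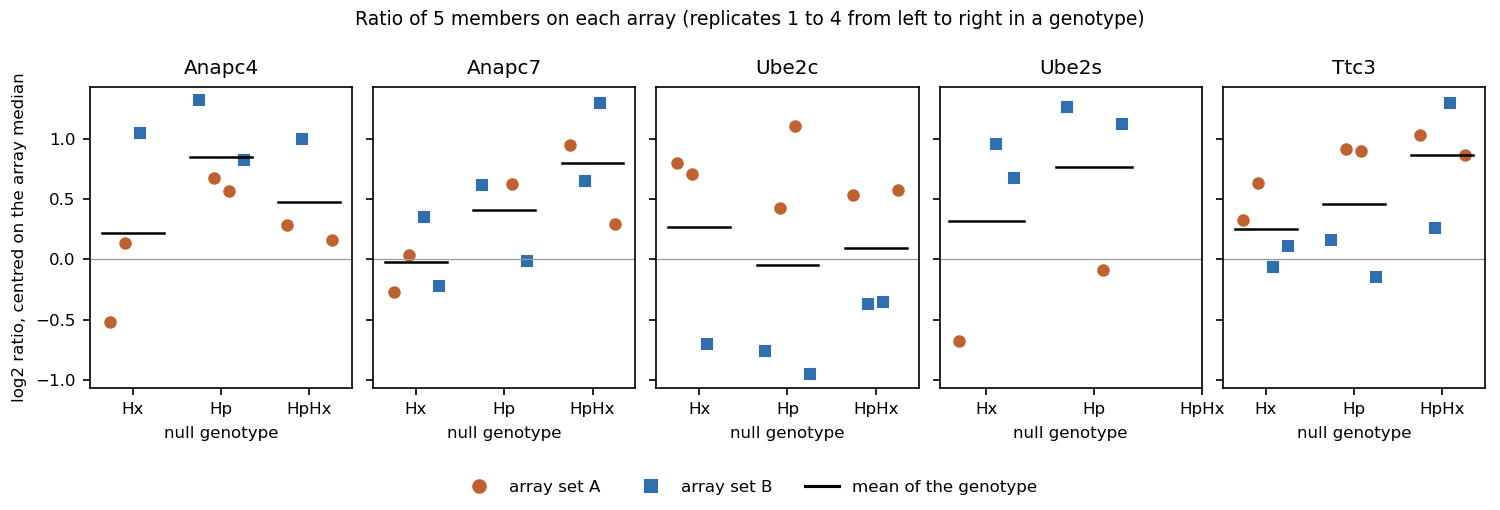
Log2 ratio (vertical axis, centred on the array median) of Anapc4, Anapc7, Ube2c, Ube2s and Ttc3 on each array, in 3 null genotypes with replicates 1 to 4 from left to right; circles are arrays of set A, squares of set B, and the bar is the mean. Ube2c changes sign with the set in every genotype, Anapc4 in Hp-null and Anapc7 and Ttc3 in HpHx-null are above 0 on all 4 arrays, and Ube2s has no value in HpHx-null.

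Among the E2 enzymes, the 2 partners of the anaphase-promoting complex lay far from 0 in both directions. Ube2s was at 1.26, -0.09 and 1.13 on replicates 1, 3 and 4 of Hp-null and at -0.68, 0.96 and 0.67 on replicates 1, 3 and 4 of Hx-null, and had no value in HpHx-null. The 4 values of set B were high (0.67 to 1.26) and the 2 of set A at or below 0. The plain mean in Hp-null was 0.77 ± 0.74 (SD, n = 3 arrays). The fit with the set term, on 3 residual degrees of freedom, gave 0.53 (SE 0.10, limma adjusted p = 0.0383) in Hp-null and 0.09 (SE 0.10) in Hx-null. This call held in 6 of 12 fits without 1 array and was lost without replicate 4 of Hx-null (adjusted p = 0.0519), replicates 1, 2, 3 or 4 of Hp-null (0.151, 0.0896, 0.13 and 0.0644) or replicate 4 of HpHx-null (0.067). Ube2s had no value on replicate 2 of Hp-null or on any HpHx-null array, so leaving those out did not change its own values. The losses there came through the moderation and the adjustment over all features. With the labelled dyes the Ube2s ratio in Hp-null was 0.70 (SE 0.44).

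Ube2c had ratios of 0.80, 0.71 and -0.70 on replicates 1 to 3 of Hx-null, of -0.76, 0.43, 1.10 and -0.95 on those of Hp-null, and of 0.54, -0.37, -0.36 and 0.57 on those of HpHx-null. It was positive on each of the 6 arrays of set A and negative on each of the 5 of set B that held a value. Its genotype means were 0.27 ± 0.84 (SD, n = 3 arrays) in Hx-null, -0.04 ± 0.98 (n = 4) in Hp-null and 0.09 ± 0.53 (n = 4) in HpHx-null, each smaller than its SD. The fitted ratios with the set term were 0.05 (SE 0.14), -0.04 (SE 0.12) and 0.09 (SE 0.12), none of which passed.

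The other 4 E2 enzymes supply many ligases. Ube2d3, the E2 with the widest spread of these, was at -0.74, -0.46, 0.49 and 0.49 in Hx-null, at 0.11, -0.64, -0.52 and 0.30 in Hp-null and at -0.82, 0.92, 0.40 and -0.70 in HpHx-null, negative on the 6 arrays of set A and positive on the 6 of set B. Its fitted ratios with the set term were -0.05, -0.19 and -0.05 (SE 0.10 each). Ube2k, which builds chains that mark proteins for the proteasome, had fitted ratios of 0.10, -0.09 and -0.10 (SE 0.10 each), and Ube2d2a 0.12, 0.06 and -0.02 (SE 0.09 each). Ube2l3, an E2 for HECT and RING-between-RING ligases, had 6 values from -0.69 to 0.77 and was tested in HpHx-null alone, at 0.02 (SE 0.25). None of these 4 passed. No E1 was measured. Ube4b, which lengthens chains as an E3 or E4 enzyme, had fitted ratios of -0.20, -0.20 and -0.05 (SE 0.11 each), did not pass, and was negative on 4 of 4 arrays of Hx-null (-0.20, -0.16, -0.22 and -0.23). It passed in Hp-null with the set term only when replicate 3 was left out (-0.38, SE 0.10, limma adjusted p = 0.0451).

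Of the proteasome, 5 members were measured out of 37 annotated Psm genes: 4 subunits of the regulatory particle and Psme3ip1. No subunit of the core particle, which holds the proteolytic sites, was measured. Psmc1, an ATPase of the base, was at -0.31, -0.10, 0.64 and 0.46 in Hx-null, at 0.06, -0.38, -0.27 and 0.36 in Hp-null, and at -0.51, 0.43, 0.21 and -0.23 in HpHx-null, positive on each array of set B and negative on each of set A. Its fitted ratios with the set term were 0.17 (SE 0.08, adjusted p = 0.369), -0.06 and -0.03. Psmd2, a large subunit of the base that binds ubiquitin-like domains, followed the sets in the same way on its 10 arrays, with values from -0.60 to -0.10 in set A and from 0.22 to 0.48 in set B and fitted ratios of 0.04, 0.02 and -0.09 (SE 0.10, 0.08 and 0.10). Psmd7, a lid subunit that pairs with the deubiquitinase of the lid, had 7 values, from -0.67 to -0.15 in set A and 0.10 and 0.59 in set B, and a fitted ratio of -0.15 (SE 0.09) in Hx-null. Psmd8, another lid subunit, had fitted ratios of -0.08, -0.06 and -0.07 (SE 0.08 each). Psme3ip1 had -0.08, 0.10 and -0.04 (SE 0.08 each). No proteasome gene passed in any null by either fit, and every fitted ratio with the set term lay between -0.15 and 0.17.

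Substrate receptors of cullin ligases were represented by 4 F-box proteins, and 0 cullins were measured. Fbxl5, the iron-regulated receptor, was at 0.09, 0.18, 0.10 and 0.28 in Hx-null, 0.21, 0.13, 0.08 and 0.01 in Hp-null and 0.13, 0.11, 0.69 and 0.06 in HpHx-null, positive on all 12 arrays. The fitted ratios were 0.16, 0.11 and 0.25 (SE 0.09 each with the set term), and none passed; that in HpHx-null had an adjusted p of 0.18. Its 2 clones did not move together. The clone at spot 21413 was at 0.25, 0.60, 0.20 and 0.55 in Hx-null, at 0.05, 0.21, 0.36 and -0.25 in Hp-null and at 0.36, 0.03, 1.36 and 0.26 in HpHx-null, while the clone at spot 9659 stayed between -0.24 and 0.37 and was at 0.02 where the first stood at 1.36. In Hx-null and HpHx-null the positive mean of Fbxl5 thus came from 1 clone: in the order Hx-null, Hp-null, HpHx-null, genotype means were 0.40, 0.09 and 0.50 for spot 21413 and -0.07, 0.12 and -0.01 for spot 9659. Fbxw7, the receptor for cyclin E and Myc, had fitted ratios of 0.04, 0.02 and -0.14 (SE 0.08 each). Fbxo42 and Fbxl6 had ratios between -0.15 and 0.09.

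2 further members had 2 clones. Those of Psmd8 opposed each other across the sets: the clone at spot 9435 had a mean of -0.40 in set A and 0.24 in set B, and the clone at spot 5281 0.05 and -0.17. Those of Trim27, a RING ligase of the tripartite-motif family, ran alike, with -0.22 and 0.17 for spot 13003 and -0.34 and 0.32 for spot 27887. Across the 12 arrays the 2 clones correlated at -0.44 for Fbxl5, -0.64 for Psmd8 and 0.84 for Trim27. The median over pairs of clones of 1 gene in the whole series was 0.86. The averaged Trim27 had fitted ratios of -0.01, 0.06 and -0.10 (SE 0.07 each) in Hx-null, Hp-null and HpHx-null. The 4 members that passed a test were each measured by 1 clone, so none of these calls was seen by a second clone.

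**Figure D3:**
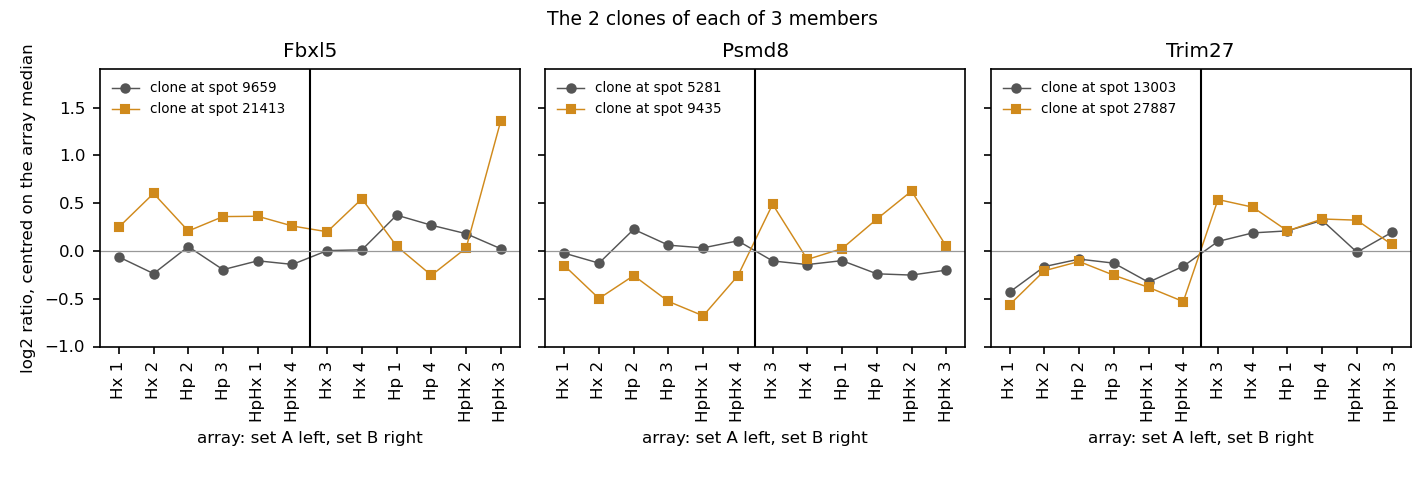
Log2 ratio (vertical axis, centred on the array median) of each clone of Fbxl5, Psmd8 and Trim27 on the 12 arrays, set A left of the line and set B right of it. The 2 clones of Trim27 are low in set A and high in set B, those of Psmd8 go opposite ways, and 1 clone of Fbxl5 reaches 1.36 on replicate 3 of HpHx-null where the other is at 0.02.

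The remaining members gave small ratios. The tripartite-motif ligases Trim14, Trim27, Trim35, Trim41 and Trim44 had fitted ratios with the set term from -0.14 to 0.17 over the nulls in which they were tested, and the deubiquitinases Usp19, Usp25, Usp29 and Usp32 from -0.21 to 0.19. Herc3, a HECT ligase, was at 0.07 (SE 0.15) in Hp-null. The largest of these sizes in HpHx-null among genes with all 12 values was that of Trim35, -0.14 (SE 0.11). None of these 10 passed. No RING finger gene of the Rnf name was measured, although the annotation lists 44 of them on 61 clones. Measured shares by symbol were 5 of 29 Trim genes and 4 of 37 Usp genes. They were 6 of 30 for Uba and Ube2 symbols and 6 of 41 for Fbx, Cul and Anapc symbols. The Uba symbols also take in genes such as Ubap2 and Ubash3b, which encode neither an E1 nor an E2. Over all member clones 9.4% were measured, beside 11.1% of all clones with 1 symbol.

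Between the nulls 0 members passed with either term in limma. With the labelled dyes it was 0 of 24 members for Hp-null against Hx-null beside 11 of 1848 features (0.595%), 0 of 22 for HpHx-null against Hx-null beside 0 of 1654 (0.0%), and 0 of 22 for HpHx-null against Hp-null beside 0 of 1690 (0.0%); at an unadjusted p under 0.05 these were 0, 1 and 0 members. With the set term it was 0 of 24 beside 21 features (1.14%), 0 of 22 beside 3 (0.181%) and 0 of 22 beside 0 (0.0%), with 2, 2 and 0 members at an unadjusted p under 0.05. So the calls against wild-type were not shown to differ between genotypes. The largest difference was that of Anapc7, higher in HpHx-null than in Hx-null by 0.82 (SE 0.22, 95% interval 0.34 to 1.30, limma adjusted p = 0.392). Ttc3 differed by 0.62 (SE 0.20, adjusted p = 0.734) in the same comparison, and by 0.41 (SE 0.20, adjusted p = 0.415) between HpHx-null and Hp-null. Anapc4 was higher in Hp-null than in Hx-null by 0.50 (SE 0.20, adjusted p = 0.301) and Ube2s by 0.45 (SE 0.14, adjusted p = 0.223).

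Values of many members differed between the 2 array sets. The sets were read from these values, so the set difference is a description with no test. Of the 25 members with at least 3 values in each set, 19 had a higher mean in set B and 6 in set A, so 76.0% were higher in B beside 53.1% of 1969 features, with a median difference of 0.17 beside 0.05. The share higher in B also differed with the start of a clone's accession, as given below. The size of the difference was like that of the rest, with a median of 0.51 for members and 0.53 for all features. The 2 sets did not overlap at all for 12 of these members (48.0%), beside 54.0% of all features. Of the 6 that were lower in B, the mean of B minus that of A was -1.32 for Ube2c, -0.98 for Usp32, -0.89 for Trim14, -0.51 for Ttc3, -0.17 for Herc3 and -0.09 for Ube4b. Among the 19, it was largest for Ube2d3 (1.10), Trim35 (0.86) and Anapc4 (0.83). Of the members with only 2 values in A, Ube2s was higher in B (1.39), and Trim44 (-0.51) and Ube2l3 (-0.45) were lower. The 4 measured subunits of the regulatory particle were all higher in B, by 0.66 (Psmc1), 0.65 (Psmd2), 0.81 (Psmd7, with 2 values in B) and 0.21 (Psmd8, the mean of opposed clones).

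**Figure D4:**
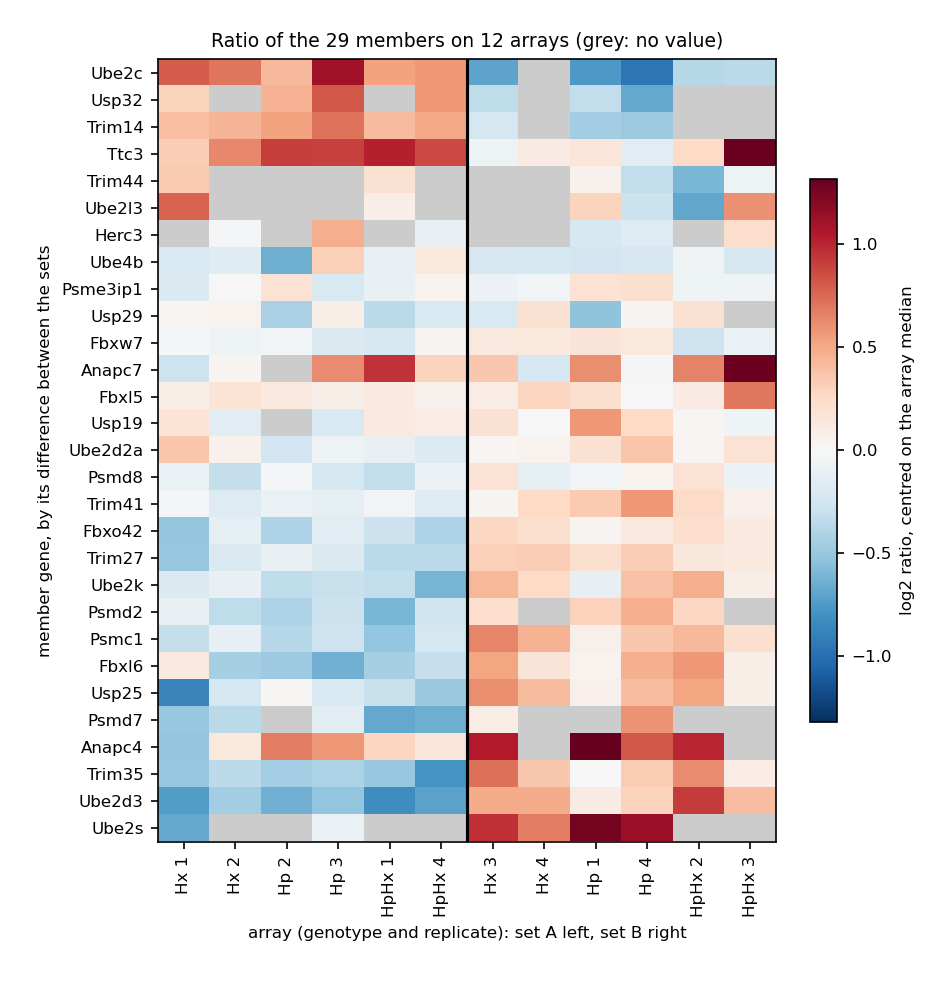
Log2 ratio (colour, centred on the array median) of the 29 members, 1 row each, on the 12 arrays, set A left of the line and set B right of it; grey is no value, and rows are ordered by the difference between the sets. The top rows, from Ube2c to Trim14, are positive in A and negative in B, most lower rows are the opposite, and Ttc3 is positive on 10 of 12 arrays.

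**Figure D5:**
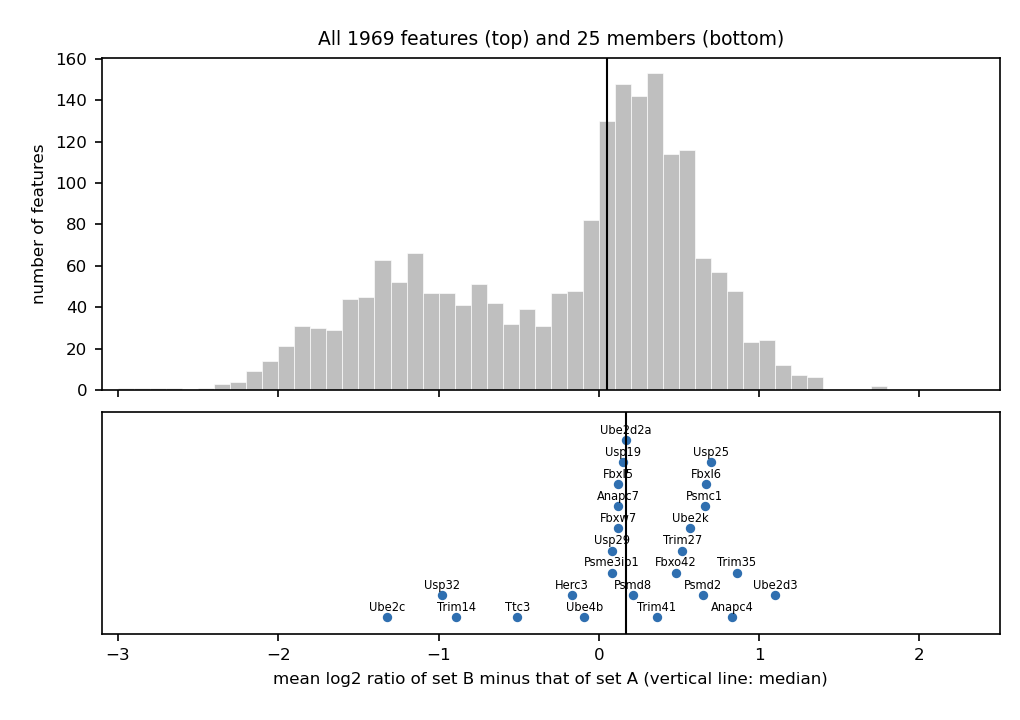
Difference of the mean log2 ratio of set B minus that of set A (horizontal axis) as a histogram over 1969 features (top) and for 25 members (bottom, stacked so that names can be read); lines are the medians, 0.05 and 0.17. The features form a broad group near -1.3 and a taller one near 0.3, and the members lie mostly in the second, with Ube2c, Usp32, Trim14 and Ttc3 to the left.

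Clones of members differed in the size of the set difference with the start of their sequence accession. The median size was 0.65 for 20 clones starting with BG and 0.31 for 12 starting with CK. In the whole series it was 0.62 over 691 BG clones and 0.30 over 354 CK clones. Those of the whole series had 3 or more values in each set, while member clones were taken without that minimum. Anapc4, Anapc7, Ttc3, Ube2c and Ube2s were each read by a BG clone. What the start stands for is not given in the sources used here, and its part in the set difference was not tested.

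Genes of neighbouring pathways are given by counts and medians. Of the other ubiquitin and ubiquitin-like pathway genes 10 were measured, among them the segregase Vcp, the deubiquitinase Otud6b and the SUMO protease Senp6 (and Traf3ip1, which the symbol pattern brought in), and 0 of 10, 10 and 8 tested passed in limma in Hx-null, Hp-null and HpHx-null by either fit. Their medians with the set term were -0.01, -0.0 and -0.05, beside -0.02, -0.01 and -0.03 over all features tested. Of 6 autophagy genes and cellular proteases measured (Atg101, Ctsd, Ctsl, Ctsz, Lamp2 and Tpp2), 6, 6 and 4 were tested and 1 passed, Tpp2 in HpHx-null with the set term at 0.66 (SE 0.11, limma adjusted p = 0.00645); with the labelled dyes the ratio was 0.66 (SE 0.19, adjusted p = 0.284) and did not pass. Tpp2 encodes a peptidase that trims peptides released by the proteasome. In Hp-null it was at 0.21 (SE 0.11) and in Hx-null at 0.34 (SE 0.11), which did not pass.

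Cell type markers were thin on these arrays. Of 9 hepatocyte markers Alb, Apoa1 and Ttr were measured, with mean ratios over the arrays from -0.05 to 0.42 in Hx-null, from -0.55 to -0.01 in Hp-null and from 0.05 to 0.41 in HpHx-null. The called members were positive in both Hp-null and HpHx-null. These are plain means without a fit, and 1 end of each of these ranges lay near 0. Of 8 macrophage markers Fcer1g alone was measured (-0.04, 0.01 and -0.08) and of 5 neutrophil markers Ltf alone (-0.19, -0.02 and -0.03); of the erythroid, endothelial, stellate, lymphocyte and bile duct lists 0 were. Their part in the members' ratios was not tested.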

How the data were processed

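RNA of pooled livers was hybridised on 12 two-colour arrays, 4 per null genotype. The authors deposited 1 table of log ratios for 31200 spots, taken here as log2 values; the sources used here state neither its base nor its normalization, spot filter or direction. Neighbouring spots were averaged to clones and clones to genes, named by the reversed numbering from the platform's annotation; 340 of 340 member clones were found by Entrez number in RefSeq (GRCm38.p6) and 0 symbols changed. Each array was centred on its median. Fits used R 4.3.3 and limma 3.58.1 (lmFit, robust eBayes with statmod 1.5.0) with 1 coefficient per genotype and a term for the labelled dye or the array set, Benjamini-Hochberg adjustment and a threshold of 0.05. They were tested on simulated data in which the dye or set of each array was given. Reading the sets from the values was not part of that test. With 1 array left out, a feature needed 2 values per genotype. The members, the lists and the array sets were chosen with earlier results of these data known.

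Members were named with values if they passed a test, were among the 3 largest ratios with the labelled dyes in a null among genes with all 12 values, were proteasome, E1 or E2 genes, or had more than 1 clone. Alternatives were the deposited and quantile-scaled values, no dye or set term, the replicate number as a block, features on all 12 arrays, arrays turned by the labelled dyes, the direct numbering, each array left out and an unmoderated test. Replicate numbers did not pair the arrays: deviations from the genotype means correlated between same-numbered arrays at -0.86 to 0.85. The number of arrays limits the precision, and no array had the values of another.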

Additional observations from a re-analysis of the deposited data

Results flagged for a closer look

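In 3 of 60 groups of 4 arrays (5.0%), 1 array of a member lay far from the others, with a gap to the nearest other array above Dixon's 95% critical share of the range of the 4; chance alone gives about 1 in 20. Fbxl5 stood at 0.69 on replicate 3 of HpHx-null and between 0.06 and 0.13 on the other arrays (gap 0.89 of the range), and of its 2 clones the one at spot 21413 was at 1.36 there and the one at spot 9659 at 0.02. Psme3ip1 stood at -0.2 on replicate 3 of Hp-null and between 0.19 and 0.21 on the others (0.944). Ube2d2a stood at 0.36 on replicate 1 of Hx-null and between 0.02 and 0.06 on the others (0.892).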

How the results depend on the processing

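With the labelled dyes 0 members passed in all 6 comparisons under every alternative, and with the set term the count stayed at 0 in Hx-null against wild-type and between the nulls. In Hp-null the count of 2 with the set term became 0 without any dye or set term (beside 0 of 2017 features), 0 with the replicate block (0 of 1986), 0 over features measured on all 12 arrays (6 of 1129), where neither Anapc4 nor Ube2s qualifies, 0 by the direct numbering (66 of 2055), which names other members, and 0 by the unmoderated test (5 of 2017). Leaving out 1 array gave 0 to 3. The count was 0 without Hp-null replicate 1 or 2 (beside 8 of 2033 and 12 of 2052 features). It was 1 without replicate 4 of Hx-null (44 of 2052), Hp-null (42 of 2017) or HpHx-null (21 of 2052). It was 3, Ttc3 included, without HpHx-null replicate 3 (73 of 2052). Values as deposited also gave 3 (84 of 2017). In HpHx-null the count of 3 became 0 without any term (beside 7 of 1711 features), 0 with the replicate block (0 of 1707), 0 by the unmoderated test (0 of 1711) and 1 (Ttc3) over features measured on all 12 arrays (55 of 1129). Over all features the set term called 56 in Hp-null and 92 in HpHx-null. Leaving out 1 array gave 1 to 3 in HpHx-null, with 1 (Ttc3) without HpHx-null replicate 1 or 3 (beside 56 of 1777 and 33 of 1868 features). The replicate block changed no other call. By the direct numbering 3 of 44 members passed in HpHx-null (beside 90 of 1745 features), among them Psme1 and Trim37. Except for losses by construction, the cause was not tested. No ratio of the 5 calls changed sign under these settings, but that of Ttc3 in HpHx-null did (-0.22) with arrays turned by the labelled dyes. No fit was made on single clones, and the 4 called members have 1 clone each.

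Limits: the deposited sign, the log base and the reason for the array sets are unsettled; names rest on the reversed numbering; the labels do not say whether the 4 arrays of a genotype come from separate pools; and 29 of 225 annotated genes were measured, with 0 core proteasome subunits.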
